A study of Saccharomyces cerevisiae with 4 samples.

Results

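The transcripts of 10 genes of ammonium uptake and glutamate metabolism were followed in 4 strains of Saccharomyces cerevisiae, out of the 6418 genes whose read counts were deposited. The genes were chosen by name, for what they encode: the ammonium permeases MEP1, MEP2 and MEP3, the enzymes GDH1, GDH3, GLT1 and GLN1 that build ammonium into glutamate and glutamine, the enzyme GDH2 that breaks glutamate down, and the GATA transcription factors GAT1 and DAL80. In byMM1827, scaffold RNAs (ScRNAs) bring denAsCas12a, a DNase-deficient Cas protein, and the activation domain VP64 to the promoter of HED1 and to lexOpR, the operator in front of the reporter gene yEGFP. Its control byMM1777 has the same Cas protein and no ScRNA. In byMM1832, ScRNAs bring dCas12e and VP64 to the promoter of GAL7 and to lexOpR, and its control byMM1736 has dCas12e and no ScRNA. All 4 strains were built on CEN.PK2-1C, a MATa laboratory strain with the alleles his3D1 for histidine, leu2-3_112 for leucine, ura3-52 for uracil and trp1-289 for tryptophan, and with MAL2-8c and SUC2. All 4 hold integrated plasmids for the Cas protein under the GPD promoter (marked with URA3), for VP64 fused to the coat protein MCP (marked with TRP1) and for the reporter (marked with LEU2). The ScRNA plasmid is marked with HIS3, so that a strain with ScRNAs also gained this gene, and the effects of the plasmid's marker and of the ScRNAs cannot be told apart. The reporter plasmids of the denAsCas12a strains and of the dCas12e strains differ, and the strains with ScRNAs had been selected by their fluorescence. Each strain has 1 library from a culture that was grown overnight, diluted and grown on, and the nitrogen source of its medium is not given in the sources used here.

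Yeast takes up ammonium through the Mep permeases and fixes it on 2-oxoglutarate with Gdh1 and Gdh3 to make glutamate. Gln1 adds a second ammonium to make glutamine, and Glt1 moves the amide group of glutamine onto 2-oxoglutarate, which makes glutamate. Gdh2 runs in the opposite direction and releases ammonium from glutamate. Many of these genes are under nitrogen catabolite repression, in which the activators Gln3 and Gat1 work through GATA sites in poor nitrogen sources and Dal80 and Gzf3 repress through the same sites.

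The libraries held from 37275559 counts (byMM1777) to 54013763 counts (byMM1827). Levels are given in TPM, which divides the counts of a gene by its length and scales each library to nearly the same total, so that genes can be compared with each other. Each ratio of TPM between 2 strains has a 95% Clopper-Pearson interval made from its 2 counts. With 1 library per strain there is no replicate error and no test, the intervals cover counting error only, and every comparison is one of libraries and not of conditions. Genes were called different past 2-fold, over the 6010 genes whose 4 libraries averaged 10 counts or more, a limit that all 10 genes passed. HED1 had 30.3 TPM in byMM1827, against 15.8 TPM in byMM1777, and GAL7 had 3.53 TPM in byMM1832, against 2.05 TPM in byMM1736. These genes also differed in the pair in which they are not the target. GAL7 had 2.70 TPM in byMM1827, against 1.62 TPM in byMM1777. HED1 had 8.43 TPM in byMM1832, against 16.6 TPM in byMM1736. STE2, the receptor that only MATa cells make, was at 167 to 196 TPM and STE3, its MATalpha counterpart, at 18.1 to 23.2 TPM. The library of byMM1777 stood apart in scale: over all genes, the median log2 ratio was −0.16 for byMM1827 over byMM1777 and −0.22 for byMM1736 over byMM1777, so that a ratio near 1 in these comparisons lay above the middle of all genes.

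The 10 genes spanned almost the whole range of transcript levels. GLN1, glutamine synthetase, was the most abundant with 705 TPM in byMM1827, 737 TPM in byMM1777, 579 TPM in byMM1832 and 785 TPM in byMM1736. DAL80, the repressor, was the least abundant with 1.91, 1.84, 1.31 and 1.91 TPM in the same strains. The other 8 genes lay between these, from 19.0 TPM (MEP2 in byMM1832) to 355 TPM (GDH1 in byMM1736). The level was the lowest of the 4 strains in byMM1832 for 9 of the 10 genes, all but MEP1, whereas 37.0% of the genes tested had their lowest level in that strain. The highest level was in byMM1777 for 4 genes (MEP1, MEP3, GDH2 and GAT1), beside 54.0% of the genes tested, in byMM1736 for 4 genes (GDH1, GLT1, GLN1 and DAL80), beside 7.59%, and in byMM1827 for MEP2 and GDH3, beside 12.2%. The places of DAL80 rest on few counts, and no neighbours in its order of strains differed beyond counting error.

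**Figure D1:**
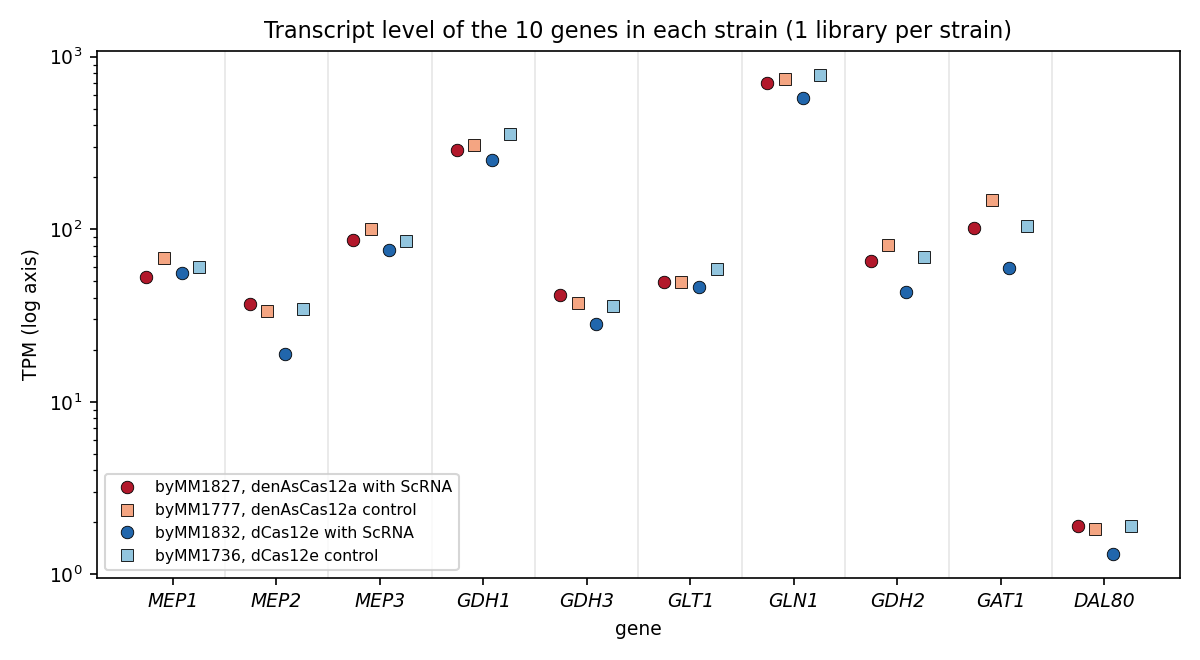
TPM of each of the 10 genes on a log axis, with 1 point per strain and library (circles with ScRNA, squares without). The spread between genes is far larger than that between strains, and the dark blue circle of byMM1832 is the lowest point for 9 genes, with GAT1 at 59.2 TPM and MEP2 at 19.0 TPM.

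The comparison of byMM1832 with byMM1736 sets the dCas12e strain with ScRNAs against its control, which lacks the ScRNAs and their plasmid marked with HIS3. All 10 genes were lower in byMM1832, with ratios from 0.551 (MEP2) to 0.924 (MEP1), and all 10 counting intervals lay below 1. The ratios stayed below 1 for all 10 genes under each of the 5 other scalings and with either pseudocount. In RNA from a whole culture, fewer cells that express a gene and less RNA per cell cannot be told apart. None of the 10 was past 2-fold, where 0.849% of all genes were higher and 2.65% were lower. At a limit of 1.5-fold, 3 of the 10 genes were lower, namely MEP2, GDH2 and GAT1, and none was higher, where 6.97% of all genes were lower and 4.48% were higher. The median log2 ratio of the 10 genes was −0.47, beside 0.03 for all genes, and 5 of the 10 lay among the lowest 10% of all genes. A ratio below 1 was itself common, at 46.0% of all genes.

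The comparison of byMM1827 with byMM1777 does the same for the denAsCas12a strains. Here 4 of the 10 genes were higher and 6 were lower in byMM1827, with ratios from 0.689 (GAT1) to 1.11 (GDH3). The split depended on the scale, since GDH1 and GLN1 were above 1 with TMM factors, and MEP2, GDH3, GLT1 and DAL80 were below 1 relative to ACT1. None of the 10 was past 2-fold, where 0.765% of all genes were higher and 0.632% were lower, and none was past 1.5-fold, where 2.38% of all genes were higher and 5.71% were lower. The median log2 ratio of the 10 genes was −0.08, beside −0.16 for all genes. GAT1 was the one gene of the 10 among the lowest 10% of all genes.

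The control strains hold no ScRNA but differ in Cas protein and reporter plasmid, so that differences of construct and of library cannot be told apart between them. Of the 10 genes, 5 were higher and 5 were lower in byMM1736 than in byMM1777, with ratios from 0.703 (GAT1) to 1.19 (GLT1) and a median log2 ratio of −0.02, beside −0.22 for all genes. With TMM factors MEP1 and GDH3 were above 1 as well, and relative to ACT1 GLT1 alone was. None was past 2-fold, where 0.799% of all genes were higher and 1.08% were lower, and none past 1.5-fold, where 2.51% were higher and 11.0% were lower. Between the strains with ScRNAs, 9 of the 10 genes were lower in byMM1832 than in byMM1827, and MEP1 was higher except relative to ACT1, with a median log2 ratio of −0.41, beside −0.03 for all genes. None was past 2-fold, where 0.965% of all genes were higher and 3.33% were lower, while MEP2, GDH2 and GAT1 were past 1.5-fold, where 4.16% were higher and 9.10% were lower. This comparison and that of byMM1832 with byMM1736 share the library of byMM1832, and those of byMM1827 and of byMM1736 with byMM1777 share the library of byMM1777.

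**Figure D2:**
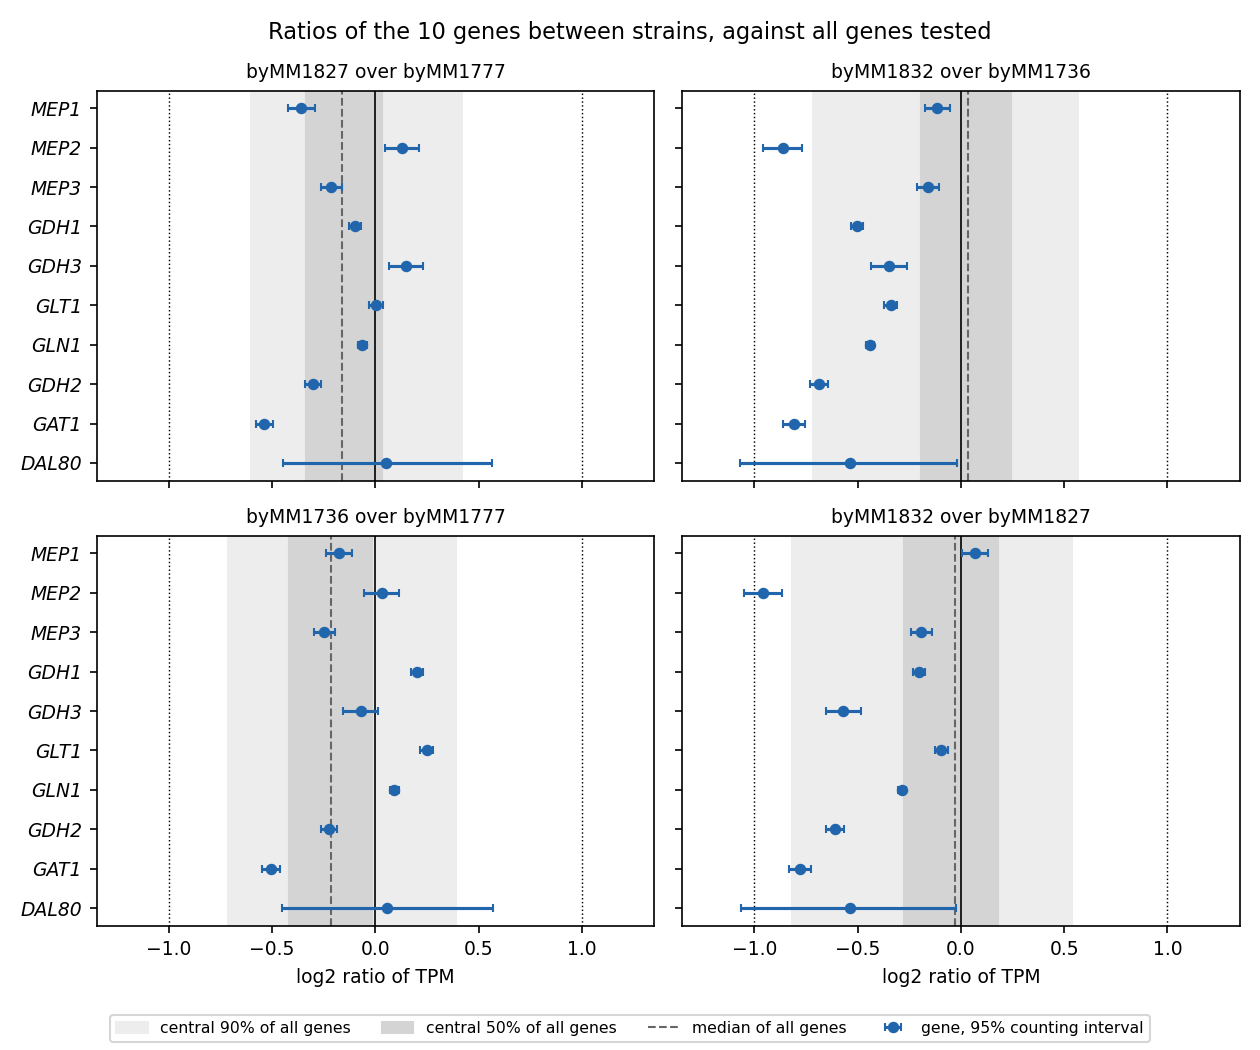
Log2 ratio of TPM of the 10 genes in the 4 comparisons, with the 95% counting interval, the median (dashed) and the central 50% and 90% (grey) of all genes tested, and dotted lines at 2-fold. All 10 points lie below 0 for byMM1832 over byMM1736, from −0.86 (MEP2) to −0.11 (MEP1), and no point reaches a dotted line in any comparison.

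Among the permeases, MEP2 varied far more than MEP1 and MEP3. Mep2 has the highest affinity for ammonium of the 3 and also acts as the sensor that is required for filamentous growth on little ammonium, Mep1 has an intermediate affinity, and Mep3 has the lowest affinity. MEP2 (YNL142W, chromosome XIV from 357453 to 358952 on the + strand of the S288C reference genome R64 of RefSeq) had 36.8 TPM in byMM1827, 33.7 TPM in byMM1777, 19.0 TPM in byMM1832 and 34.4 TPM in byMM1736. The other 3 strains lie close together and byMM1832 stands apart below them, and the levels of byMM1736 and byMM1777 did not differ beyond counting error. The ratio of byMM1832 to byMM1736 was 0.551, with 3.54% of all genes lower, and that of byMM1832 to byMM1827 was 0.514, with 3.58% of all genes lower. The ratio of byMM1827 to byMM1777 was 1.09 and lay on the other side of 1, except that it was 0.940 relative to ACT1.

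MEP1 (YGR121C, chromosome VII from 731449 to 732927 on the − strand) had 53.0 TPM in byMM1827, 68.0 TPM in byMM1777, 55.6 TPM in byMM1832 and 60.1 TPM in byMM1736. It was the one gene with its lowest level in byMM1827, with a ratio of 0.780 to byMM1777 and, in the dCas12e strains, a ratio of 0.924. MEP3 (YPR138C, chromosome XVI from 810984 to 812453 on the − strand) had 86.9 TPM in byMM1827, 101 TPM in byMM1777, 76.1 TPM in byMM1832 and 84.9 TPM in byMM1736. MEP3 was the most abundant of the permeases in every strain and its ratios were alike in the denAsCas12a strains (0.862) and in the dCas12e strains (0.896). The levels of MEP3 in byMM1827 and byMM1736 did not differ beyond counting error.

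The makeup of the permease transcripts does not depend on how libraries are scaled. MEP2 made up 21.1% of the counts of the 3 permeases in byMM1827 (95% Clopper-Pearson interval from 20.5% to 21.8%), against 16.9% in byMM1777 (16.2% to 17.6%). It made up 12.8% in byMM1832 (12.2% to 13.4%), against 19.5% in byMM1736 (18.8% to 20.1%). The share of MEP2 was thus larger in byMM1827 and smaller in byMM1832 than in the control of each. The controls also differed from each other, at 16.9% and 19.5%, with intervals that do not overlap. MEP3 held from 47.0% to 50.3% in the 4 strains, and MEP1 held 30.0% in byMM1827, 33.6% in byMM1777, 36.9% in byMM1832 and 33.5% in byMM1736. The coding sequences of MEP1 and MEP3 are identical at 69.7% of aligned bases and those of MEP2 at 54.5% and 55.6% to them, and the 3 genes share no word of 31 bases, so that a read of that length belongs to 1 of them.

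GATA factors bind the letters GATAAG, which were searched on both strands (CTTATC is the same site on the other strand) upstream of the coding sequence in R64. In the window from 250 bases before to 50 bases after the start, 4 of the 10 genes held GATAAG (MEP2, MEP3, GAT1 and DAL80), beside 14.7% of 6001 windows of all genes. A longer window of 600 bases before the start, chosen after the first had been seen, held at least 2 matches for 8 of the 10 genes, all but GLN1 with 1 and GDH2 with 0, beside 4.92% of 5999 windows. MEP2 had 7 matches in 600 bases, and 0.0167% of windows had as many. The stretches that hold the matches of the permeases are shown to set the dense sites of MEP2 beside those of MEP1 and MEP3, with each match in capitals. They lie at chrXIV:356980-357233 (+ strand, from 473 to 220 bases before the start of MEP2, partly within the annotated reading frame YNL143C), at chrVII:733227-733308 (− strand, 381 to 300 bases before MEP1) and at chrXVI:812681-812956 (− strand, 503 to 228 bases before MEP3).
MEP2: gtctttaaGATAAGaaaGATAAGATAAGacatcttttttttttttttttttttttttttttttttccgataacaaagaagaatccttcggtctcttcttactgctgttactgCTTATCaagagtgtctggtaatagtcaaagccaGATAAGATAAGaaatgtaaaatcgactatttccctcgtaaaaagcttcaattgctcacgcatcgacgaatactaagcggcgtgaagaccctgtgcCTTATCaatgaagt
MEP1: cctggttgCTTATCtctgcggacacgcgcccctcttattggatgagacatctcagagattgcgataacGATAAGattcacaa
MEP3: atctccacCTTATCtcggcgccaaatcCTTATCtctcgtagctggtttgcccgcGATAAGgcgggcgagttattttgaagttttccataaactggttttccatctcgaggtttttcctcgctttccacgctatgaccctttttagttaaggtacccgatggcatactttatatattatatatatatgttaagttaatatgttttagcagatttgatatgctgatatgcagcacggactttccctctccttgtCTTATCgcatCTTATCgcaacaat
In the MEP2 stretch, 4 of the matches form 2 overlapping pairs (GATAAGATAAG). A match is a description of the reference sequence, and the strains derive from CEN.PK2-1C, whose own sequence was not used here. In the dCas12e strains, MEP2 with 7 matches in 600 bases had a ratio of 0.551. MEP3 with 5 had 0.896 and GAT1 with 4 had 0.571. GDH1, GDH3 and DAL80, with 3 each, had 0.705, 0.785 and 0.688. MEP1 and GLT1, with 2 each, had 0.924 and 0.790. GLN1 with 1 had 0.737, and GDH2, with no match, had 0.621. A link between matches and ratios was not tested.

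**Figure D3:**
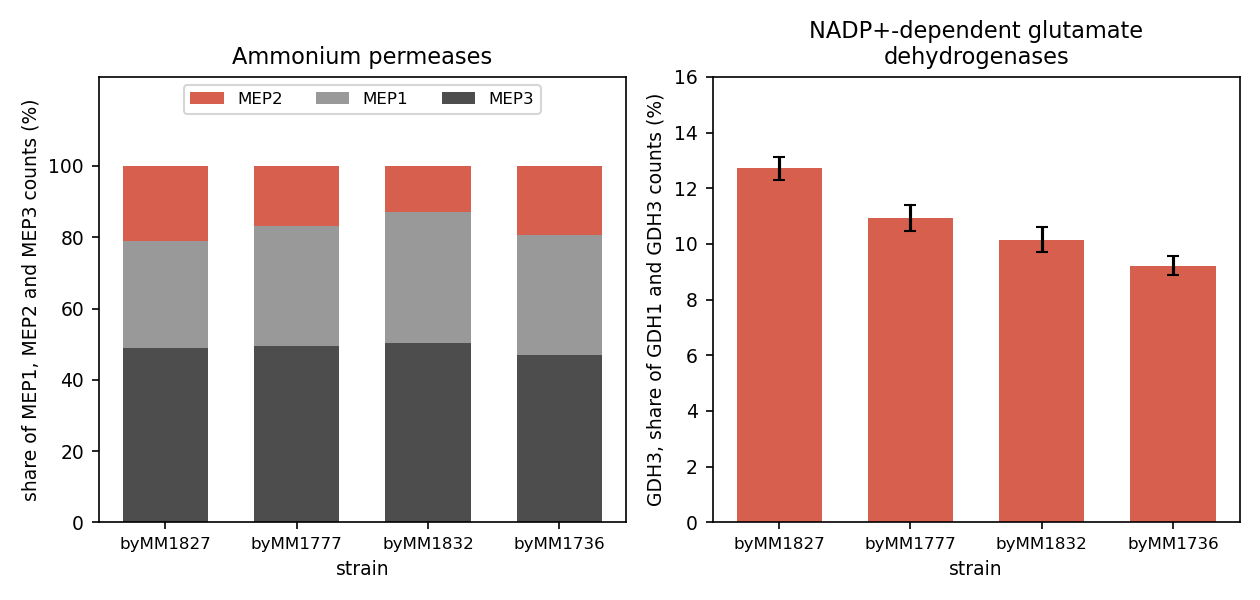
Left, share of MEP1, MEP2 and MEP3 in the summed counts of the 3 permeases in each strain, stacked. Right, share of GDH3 in the summed counts of GDH1 and GDH3, with 95% Clopper-Pearson intervals as bars: MEP2 takes 21.1% in byMM1827 and 12.8% in byMM1832, and GDH3 takes 12.7% in byMM1827 and 9.21% in byMM1736.

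The enzymes of ammonium assimilation were all lower in byMM1832 than in byMM1736, while in byMM1827 and byMM1777 they were close together. GDH1 (YOR375C, chromosome XV from 1041678 to 1043042, − strand), the principal NADP+-dependent glutamate dehydrogenase, had 288 TPM in byMM1827, 309 TPM in byMM1777, 250.4 TPM in byMM1832 and 355 TPM in byMM1736. Its ratio was 0.705 in the dCas12e strains (0.692 to 0.719) and 0.933 in the denAsCas12a strains. The level of byMM1736 was the highest of the 4 and that of byMM1832 the lowest, with a ratio of 1.15 for byMM1736 over byMM1777 and of 0.870 for byMM1832 over byMM1827. GLN1 (YPR035W, chromosome XVI from 642208 to 643320, + strand) showed the same order of strains, with a ratio of 0.737 in the dCas12e strains and of 0.957 in the denAsCas12a strains.

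GLT1 (YDL171C, chromosome IV from 149203 to 155640, − strand), the glutamate synthase, has the longest coding sequence of the 10 with 6438 bases. It had 49.6 TPM in byMM1827, 49.5 TPM in byMM1777, 46.5 TPM in byMM1832 and 58.8 TPM in byMM1736. The levels of byMM1827 and byMM1777 did not differ beyond counting error (ratio 1.002, from 0.979 to 1.03), and the ratio in the dCas12e strains was 0.790. As with GDH1 and GLN1, byMM1736 was the highest of the 4, at 1.19 times the level of byMM1777, with 91.6% of all genes below it in that comparison.

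GDH3 (YAL062W, chromosome I from 31567 to 32940, + strand) encodes a second NADP+-dependent glutamate dehydrogenase, which is known for its use on ethanol and in stationary phase. GDH3 had 41.7 TPM in byMM1827, 37.6 TPM in byMM1777, 28.1 TPM in byMM1832 and 35.8 TPM in byMM1736. The ratio was 1.11 in the denAsCas12a strains (1.05 to 1.17) and 0.785 in the dCas12e strains (0.739 to 0.834), so that GDH3, like MEP2, lay on different sides of 1 in the pairs, except relative to ACT1, where the first ratio was 0.953. Against its paralogue GDH1, GDH3 took 12.7% of the summed counts in byMM1827 (12.3% to 13.1%), 10.9% in byMM1777 (10.5% to 11.4%), 10.2% in byMM1832 (9.72% to 10.6%) and 9.21% in byMM1736 (8.88% to 9.56%). The share was thus larger in the strain with ScRNAs in both pairs, although the level of GDH3 itself was lower in byMM1832 than in byMM1736. The share also differed between the controls, and that in byMM1832 lay below that in byMM1777. GDH1 and GDH3 are identical at 76.4% of aligned coding bases and share 5 words of 31 bases, and 99.6% of the words of each occur once in the genome, so that few reads could have been split between them. The stretch upstream of GDH3 is shown since it holds 3 matches, in capitals, of which the first and second overlap by a base and the third follows directly, at chrI:31288-31320 (+ strand, 279 to 247 bases before the start).
GDH3: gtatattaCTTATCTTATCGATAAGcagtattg

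GDH2 (YDL215C, chromosome IV from 70640 to 73918, − strand) encodes the NAD+-dependent glutamate dehydrogenase that releases ammonium from glutamate. It had 65.6 TPM in byMM1827, 80.9 TPM in byMM1777, 43.0 TPM in byMM1832 and 69.3 TPM in byMM1736. The level was lower in the strain with ScRNAs of each pair, with a ratio of 0.811 in the denAsCas12a strains (0.789 to 0.833) and of 0.621 in the dCas12e strains (0.603 to 0.640). The second had 5.41% of all genes below it and the first 28.9%. The level of GDH1, the synthetic enzyme, was 4.39 times that of GDH2 in byMM1827, against 3.82 times in byMM1777, and 5.82 times in byMM1832, against 5.12 times in byMM1736. The ratio of GDH1 to GDH2 within a library, which no scaling of the library can change, was thus higher in each strain with ScRNAs than in its control. The controls differed as well, with 5.12 in byMM1736 and 3.82 in byMM1777, and byMM1827 lay below byMM1736.

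GAT1 (YFL021W, chromosome VI from 95966 to 97498, + strand), the GATA activator, had the widest span of the 10 genes. It had 102 TPM in byMM1827, 147 TPM in byMM1777, 59.2 TPM in byMM1832 and 104 TPM in byMM1736. The levels of byMM1827 and byMM1736 did not differ beyond counting error, and byMM1777 stood above and byMM1832 below them, 2.49-fold apart, where the median span over all genes was 1.39-fold. The ratio was 0.689 in the denAsCas12a strains (0.669 to 0.710), 0.571 in the dCas12e strains (0.551 to 0.593) and 0.703 between the controls (0.682 to 0.725). The ratio between the controls, with no ScRNA in either, was thus close to that within the denAsCas12a pair, with which it shares the library of byMM1777. Set against the other control, GAT1 was past 2-fold, with a ratio of 0.402 for byMM1832 over byMM1777, where 6.39% of all genes were past 2-fold lower and 1.90% were past 2-fold higher. None of the other 9 genes was past 2-fold there, and none of the 10 was for byMM1827 over byMM1736, where 0.349% of all genes were higher and 0.250% were lower.

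DAL80 (YKR034W, chromosome XI from 506898 to 507707, + strand), a repressor that is itself known as a target of the GATA activators, was near the bottom of the range. It had 86 counts in byMM1827, 57 in byMM1777, 52 in byMM1832 and 82 in byMM1736, and its levels in byMM1827, byMM1777 and byMM1736 could not be told apart at this depth. The ratio was 1.04 in the denAsCas12a strains (0.734 to 1.48) and 0.688 in the dCas12e strains (0.477 to 0.986). GAT1 exceeded DAL80 by 53.2 times in byMM1827, 80.2 times in byMM1777, 45.1 times in byMM1832 and 54.3 times in byMM1736. The stretches upstream of both factors are shown for their runs of sites. That of GAT1 lies at chrVI:95717-95760 (+ strand, 249 to 206 bases before the start), and holds 4 matches, 3 of them overlapping in a row, all within the window of 300 bases, where 0.0667% of all windows had as many. That of DAL80 lies at chrXI:506600-506684 (+ strand, 298 to 214 bases before the start) within the annotated reading frame YKR032W and holds 3.
GAT1: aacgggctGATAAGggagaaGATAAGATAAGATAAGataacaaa
DAL80: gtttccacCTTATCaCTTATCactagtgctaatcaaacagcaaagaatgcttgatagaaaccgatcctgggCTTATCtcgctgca

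Genes around the 10 were described by 7 lists of 89 genes in all, each gene of which is in the tables. In the dCas12e strains 1 gene of the lists was past 2-fold higher, beside 0.849% of all genes, and 7 were past 2-fold lower, beside 2.65%. In the denAsCas12a strains none was higher, beside 0.765% of all genes, and 2 were lower, beside 0.632%. Between the controls none was past 2-fold, beside 0.799% higher and 1.08% lower, and between the strains with ScRNAs 1 was higher in byMM1832, beside 0.965%, and 5 were lower, beside 3.33%. The median of the 89 genes together was −0.0020 (log2 ratio) in the dCas12e strains, beside −0.47 for the 10 genes and 0.03 for all genes.

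The further GATA factors and their regulators (7 genes) had none past 2-fold in any of the 4 comparisons. NPR1, a kinase that keeps ammonium permeases active, had 21.9 TPM in byMM1832, against 31.9 TPM in byMM1736 (ratio 0.685, the lowest of the list), and a ratio of 1.03 in the denAsCas12a strains. PAR32, an inhibitor of Mep1 and Mep3, had the highest ratio of the list in the dCas12e strains (1.12). URE2, which holds Gln3 in the cytoplasm, had the lowest ratio of the list in the denAsCas12a strains (0.681), and GLN3 that between the controls (0.646). The median log2 ratio of the list was −0.32 in the denAsCas12a strains, beside −0.16 for all genes, and −0.12 in the dCas12e strains, beside 0.03.

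The other genes under nitrogen catabolite repression (22 genes) did not all move one way in either pair. Their median log2 ratio in the denAsCas12a strains was 0.06, beside −0.16 for all genes. There 7 of the 22 were below 1, beside 71.6% of all genes. In the dCas12e strains the median was −0.01, beside 0.03 for all genes, and 11 of the 22 were below 1, beside 46.0%. CAR1, the arginase, had 341 TPM in byMM1832, against 169 TPM in byMM1736 (ratio 2.02, from 1.97 to 2.07), and was also 2.45 times as high in byMM1832 as in byMM1827. The first ratio was below 2 under each of the 5 other scalings, down to 1.88 relative to ACT1. PUT4, the proline permease, had 2.32 TPM in byMM1832, against 4.83 TPM in byMM1736 (ratio 0.480), and OPT2, an oligopeptide transporter, had 8.28 TPM, against 16.6 TPM (ratio 0.499). With a pseudocount of 1 TPM neither was past 2-fold, with PUT4 at 0.569 and OPT2 at 0.528. PUT1, the proline oxidase, had a ratio of 0.559 in the dCas12e strains. Between the strains with ScRNAs it had 70.5 TPM in byMM1832 and 142 TPM in byMM1827 (ratio 0.495, and 0.505 with TMM factors).

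The list for the supply of 2-oxoglutarate (18 genes) also holds regulators and genes of its breakdown. Its median log2 ratio was −0.07 in the denAsCas12a strains, beside −0.16 for all genes, and −0.15 in the dCas12e strains, beside 0.03. IDP2, the cytosolic NADP+-dependent isocitrate dehydrogenase, had 40.0 TPM in byMM1832, against 87.2 TPM in byMM1736 (ratio 0.459). In the denAsCas12a strains its ratio was 1.16, and 0.997 relative to ACT1.

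The aminotransferases and other routes of glutamate (16 genes) had a median of −0.15 in the denAsCas12a strains and of 0.12 in the dCas12e strains (log2 ratios). ALT1, the mitochondrial alanine aminotransferase, had 139 TPM in byMM1832, against 280 TPM in byMM1736 (ratio 0.498), and ARG5,6, which makes 2 enzymes of arginine synthesis from glutamate, had 43.1 TPM, against 89.7 TPM (ratio 0.480). ALT1 was not past 2-fold with a pseudocount of 1 TPM (ratio 0.5002). BAT1, the mitochondrial branched-chain aminotransferase, had the highest ratio of the list in the dCas12e strains (1.96). Genes that use glutamine (16 genes, GLN4 among them, which charges a transfer RNA with glutamine and is no amidotransferase) had no member past 2-fold in any of the 4 comparisons, with ratios in the dCas12e strains from 0.559 (CPA1, carbamoyl phosphate synthetase of the arginine route) to 1.4996 (ADE6, of purine synthesis) and a median log2 ratio of 0.22.

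The last lists are small. Of the genes linked to ammonium export (3 genes), ATO2, a putative exporter, had 127 TPM in byMM1832, against 229 TPM in byMM1736 (ratio 0.554), and was past 2-fold lower against byMM1827 (ratio 0.479). Of the regulators of GDH1, GDH3 and GLT1 (7 genes), HAP4, the limiting subunit of the activator of respiratory genes, was past 2-fold lower in both pairs. HAP4 had 59.6 TPM in byMM1827, against 123 TPM in byMM1777 (ratio 0.486), and 36.7 TPM in byMM1832, against 74.2 TPM in byMM1736 (ratio 0.494). The ratio in the denAsCas12a strains was not past 2-fold with TMM factors (0.542), with median-ratio size factors (0.544) or relative to the median of all genes (0.543). That in the dCas12e strains was not past 2-fold with a pseudocount of 1 TPM (0.501). HAP4 was also lower in byMM1736 than in byMM1777, with no ScRNA in either (ratio 0.605). GCN4, which activates amino acid synthesis genes when amino acids are scarce, had the highest ratio of the list between the controls (1.32).

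**Figure D4:**
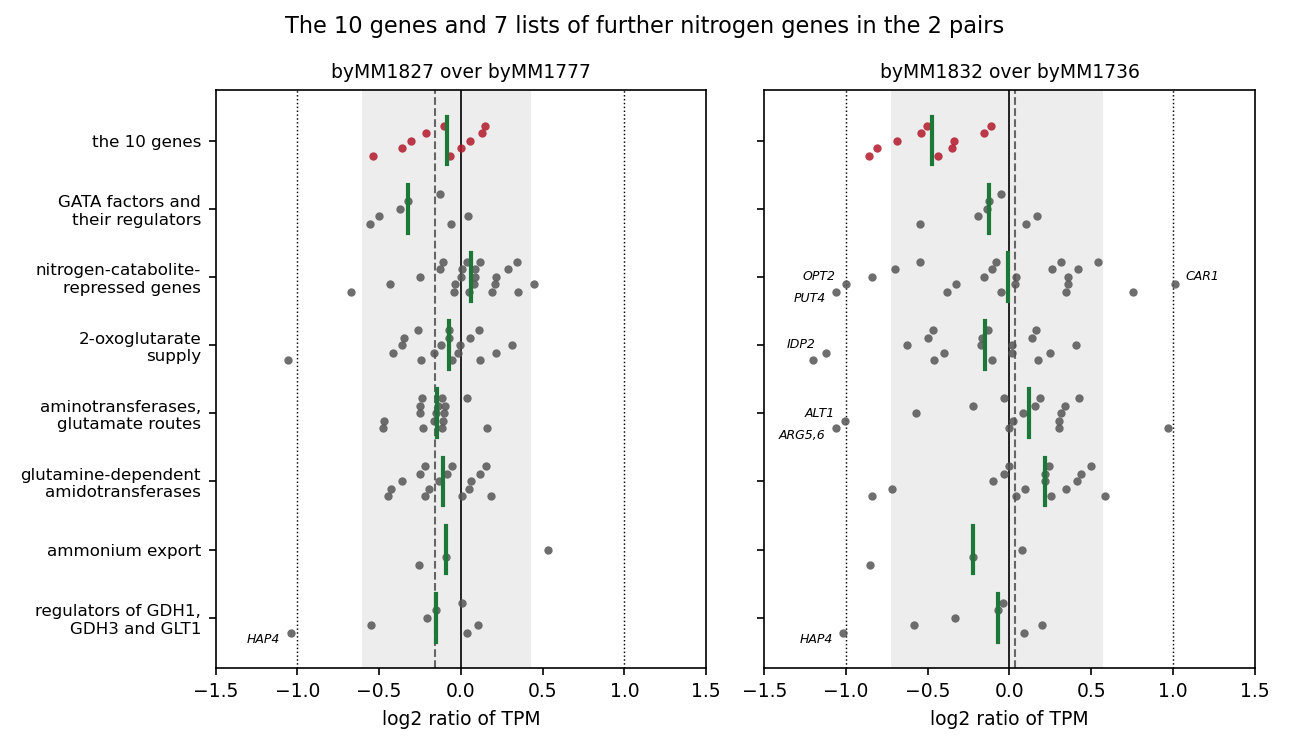
Log2 ratio of TPM of the 10 genes (red) and of the genes of 7 further lists (grey points), with each median in green, the median of all genes (dashed), the central 90% of all genes (grey band) and dotted lines at 2-fold. In byMM1832 over byMM1736 the 10 genes lie around their median of −0.47, and the list genes past 2-fold that the text describes are named.

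The 291 tested genes with at least 2 matches to GATAAG in 600 bases before the start were at a median of −0.14 (log2 ratio) in the denAsCas12a strains, beside −0.16 for all genes, and of −0.02 in the dCas12e strains, beside 0.03. Of these genes 9 (3.09%) were past 2-fold lower in the dCas12e strains, beside 2.65% of all genes.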

How the data were processed

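RNA-seq was analysed for 4 strains with 1 library per strain, grouped by the sample labels. One table deposited by the authors holds whole-number read counts without normalization. The other, also deposited by the authors, holds TPM, which divides counts by gene length and scales each library to nearly the same sum. The labels name FastQC, Trimmomatic, HISAT2, bedtools, StringTie and DESeq2 for the upstream processing, and versions, genome build and strand setting are not given in the sources used here. Both tables list 6418 genes, and their 4 columns of other strains were not used, nor were the authors' tables of fold changes and p-values. In those tables the authors deposited a log2 fold change, a p-value and a q-value per gene, none of which was printed or compared here.

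The ratio of TPM was computed without a pseudocount, with a floor of 3 counts, and with a 95% Clopper-Pearson interval from the 2 counts, which leaves out all error but that of counting, reads not being independent molecules. Genes were counted past 2-fold over the 6010 genes that averaged 10 counts or more, with 1.5-fold as a second limit. No model was fitted and no p-value was computed. The 10 genes and the 7 lists, written from general knowledge of yeast nitrogen metabolism, were chosen with earlier results of these data known. The genes named were the 10, the list genes past 2-fold in a comparison, the largest rise and fall of the lists without one, and ACT1, HIS3, HED1, GAL7, STE2 and STE3 as checks. BAT1 and GCN4 were chosen after their values were seen. The values of 1 further list gene are not reported here, and it stays in the counts and medians of its list.

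Alternatives were scaling to the total count, by TMM factors, by median-ratio size factors, to ACT1 or to the median of all genes, pseudocounts of 1 and 0.1 TPM, dropping the filter or raising it to a mean of 100 counts, limits of 1.5-fold and 3-fold, intervals wholly past 2-fold and counts thinned to the smallest library. Positions, coding sequences and upstream windows came from RefSeq's R64, in which 6017 gene identifiers matched. Identity of coding sequences was computed in place of the identity of proteins that had been planned. The calculations were checked on simulated counts of known folds, in which the median estimates and the coverage of the intervals were recovered. These counts were drawn with Poisson counting error only, so the check says nothing of other differences between libraries. The tools were Python 3.11.15, pandas 2.3.3, numpy 2.4.6, Biopython 1.88, scipy 1.17.1 and matplotlib 3.10.9, with DESeq2 1.42.0 and edgeR 4.0.16 (R 4.3.3) for scaling factors only.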

Additional observations from a re-analysis of the deposited data

Results flagged for a closer look

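Only the 10 genes and the list genes past 2-fold in a comparison were screened here. Of these, MEP2, GDH3 and IDP2 lay on different sides of 1 in the pairs with both counting intervals clear of 1. The difference was not tested, since each strain has 1 library. Other list genes did so too, such as URE2 (0.681 in the denAsCas12a strains, 1.07 in the dCas12e strains) and PAR32 (0.917 and 1.12). Of all genes, 71.6% were below 1 in the denAsCas12a strains and 46.0% in the dCas12e strains. The share of all genes on different sides of 1 is not given here. For MEP2 the ratio was 0.551 in the dCas12e strains and 1.09 in the denAsCas12a strains, and the first divided by the second was 0.504. For GDH3 the ratios were 0.785 and 1.11, and the first divided by the second was 0.709. For IDP2, which is not among the 10 genes, they were 0.459 and 1.16, and the first divided by the second was 0.396. Relative to ACT1, all 3 were below 1 in the denAsCas12a strains too, with MEP2 at 0.940, GDH3 at 0.953 and IDP2 at 0.997.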

How the results depend on the processing

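No replicate could be left out, since each strain has 1 library. No paired analysis was possible because each group holds a single library. The number of the 10 genes past 2-fold was 0 in all 4 comparisons under every alternative run, except that at 1.5-fold it was 3 for byMM1832 over byMM1736 and 3 for byMM1832 over byMM1827, and that relative to ACT1 it was 1 for byMM1832 over byMM1827 (MEP2, 0.486). Of the genes of the 7 lists, 2 were past 2-fold for byMM1827 over byMM1777. This number was 0 with TMM factors, 0 with median-ratio size factors, 0 relative to the median of all genes, 0 at 3-fold and 1 for intervals wholly past 2-fold. For byMM1832 over byMM1736, 8 list genes were past 2-fold, 4 with a pseudocount of 1 TPM, 16 at 1.5-fold, 0 at 3-fold and 3 for intervals wholly past it. For byMM1736 over byMM1777 the 0 list genes were 5 at 1.5-fold, and for byMM1832 over byMM1827 the 6 were 15 at 1.5-fold and 0 at 3-fold.

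Of all genes, 84 were past 2-fold for byMM1827 over byMM1777, 128 relative to ACT1, 486 at 1.5-fold, 15 at 3-fold and 36 for intervals wholly past it. For byMM1832 over byMM1736 they were 210, with 688 at 1.5-fold and 64 at 3-fold. For byMM1736 over byMM1777 they were 113, with 210 relative to ACT1, 71 with a pseudocount of 1 TPM, 64 with a mean of at least 100 counts, 811 at 1.5-fold, 21 at 3-fold and 35 for intervals wholly past it. For byMM1832 over byMM1827 they were 258, with 797 at 1.5-fold and 73 at 3-fold. For byMM1827 over byMM1777, 46 genes were higher and 38 lower, 61 and 18 with TMM factors, and 27 and 101 relative to ACT1. GATAAG was in the window of 4 of the 10 genes, and the shorter GATAA of 8, beside 61.5% of all windows. At least 2 matches to GATAAG were in the window of 1 of the 10, and in 600 bases, chosen after seeing the data, 9 had at least 1 match and 8 had at least 2. Where a number moved with the scaling, the cause was not tested. DAL80, with 52 to 86 counts, is the one gene of the 10 whose precision was limited by depth.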

Other observations

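With the controls exchanged between the pairs, byMM1832 was lower than byMM1777 for all 10 genes, 9 of them with the counting interval below 1 (all but DAL80), where 66.5% of all genes were lower, with a median log2 ratio of −0.41, beside −0.21 for all genes, and GAT1 alone was past 2-fold, beside 6.39% of all genes past 2-fold lower. byMM1827 set against byMM1736 was higher for 3 of the 10 genes and lower for 7, with a median log2 ratio of −0.05, beside 0.06 for all genes, and none past 2-fold. HIS3, the marker of the ScRNA plasmid, had 5309 TPM in byMM1827, against 207 TPM in byMM1777, and 2770.3 TPM in byMM1832, against 255 TPM in byMM1736, and its part in the levels of the 10 genes was not tested.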
